A study of Mus musculus with 6 samples.

Results

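Genes for sensing, signalling and repairing DNA breaks were compared in mouse pro-B cells with and without tamoxifen, given to delete the transcription factor gene Foxo1. A list of 39 genes was set by name, and a member counted as measured where a probe set of the array is paired with its symbol and no other. This held for 37 of the 39, among 19937 genes measured in all, and the brightest probe set was taken for each gene. Rnf8 shares its probe set with another symbol and Rbbp8 was not analysed here. Measured under its newer symbol H2ax, H2afx is counted among the 37.

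The cells were pro-B cells transformed with the vAbl oncogene, on a C57/BL6 background, and every sample carried the genotype Foxo1f/f; ERCre. In this genotype both Foxo1 alleles are flanked by recombination sites, and ERCre is a Cre recombinase that tamoxifen activates. A group of 3 untreated samples was compared with a group of 3 samples given 1 µM tamoxifen for 2 days. The labels call the untreated samples wild type, although they carry the same floxed alleles. They do not say how many lines or cultures the samples came from, so the p-values speak to sample spread alone, and that spread could be technical. No sample here received tamoxifen with Foxo1 intact, so loss of Foxo1 and exposure to tamoxifen cannot be told apart.

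Developing B cells cut their own DNA when they assemble antigen receptor genes. The RAG recombinase makes the breaks, and classical end joining closes them: the Ku heterodimer (Xrcc5 and Xrcc6) binds the ends, the kinase encoded by Prkdc joins it, and the Lig4 ligase seals them with Xrcc4 and Nhej1. Breaks that arise in S and G2 phase can instead be copied from the sister chromatid by homologous recombination, which depends on Brca1, Brca2 and their partners. Above both routes stand the kinases Atm and Atr, which mark the chromatin around a break and hold the cell cycle.

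The array gave 1 intensity per probe set on a linear scale, with array medians between 100.9 and 109.1. Foxo1 measured 647 ± 149 in untreated and 134 ± 17.8 in tamoxifen samples (SD, n = 3), with a limma adjusted p = 0.0178, and the sources used here do not say whether its probe set lies in the deleted part. Of the 10 measured B lineage markers 8 lay at or above the median of probe set means, and Rag1 and Rag2, at 68.7 ± 21.5 and 46.3 ± 20.8 in untreated samples (SD, n = 3), lay below it. Their log2 fold changes were -0.26 ± 0.19 and -0.32 ± 0.24 (SE), and that of Dntt, which adds bases at the joins, was -1.26 ± 0.25 (SE), with a limma adjusted p = 0.365. Dclre1c, which opens the hairpins that RAG leaves, was not analysed here. Below that median were 5 of 6 T cell, 7 of 7 myeloid, 2 of 3 erythroid and 5 of 8 natural killer, plasma and stromal markers. The median log2 fold changes of these 4 lists lay between -0.09 and -0.003, and limma called 0 of their genes after adjustment. It also called 0 of the 10 B lineage markers, but at an unadjusted p under 0.05 there were 5 higher and 2 lower (2.96% and 2.19% of all genes). The groups did not overlap in 5 markers higher and 2 lower, against 5.56% and 5.68% of all genes. The interval of the log2 fold change lay within 1.5-fold for 3 of the 10, so the B lineage markers cannot be taken as unchanged, and their part in the repair gene values was not tested.

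Of the 37 repair genes, 0 differed after adjustment, and the largest difference, that of Bard1, was 1.27-fold. The test was limma, adjusted by Benjamini-Hochberg across all 34760 probe sets, at an adjusted p under 0.05. It called 0.0575% of all probe sets (0.0374% higher and 0.0201% lower after tamoxifen) and 0.0853% of genes, and the lowest adjusted p of a member was 0.490. At an unadjusted limma p under 0.05, 4 members were lower after tamoxifen (Bard1, Mdc1, Brca1 and Fanci) and 0 were higher, against 2.19% and 2.96% of all genes. In either direction the share of all genes was 5.15%, and 7.82% among genes at or above the median of probe set means, where 35 of the 37 members lay. Of the 4 lower members, Bard1 alone stayed under 0.05 when arrays were only scaled to a common median, and Lig4 was then the 1 member under it upward.

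Log2 fold changes are tamoxifen minus untreated on quantile normalised log2(value + 16), which understates the change of dim genes. They ran from -0.35 (Bard1) to 0.24 (Xrcc4), with a median of -0.05 over the 37 members and of -0.01 over all genes. Negative values were found for 25 members, 67.6% of them, against 55.5% of all genes. Under common median scaling the shares were 56.8% and 50.1%. After normalization, the 3 tamoxifen values lay below the 3 untreated values in 7 members (5.68% of all genes) and above them in 1 (5.56% of all genes). Together these are 8 of 37 members, where 11.2% of all genes were so separated. Among genes at or above the median of probe set means the shares were 5.8% lower and 7.6% higher. With 3 samples against 3, an exact two-sided permutation test of a single gene cannot go below p = 0.1.

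For most members the data bound the change more tightly than the absence of a call does. The 95% interval of the log2 fold change lay within 1.5-fold in both directions for 32 of 37 members, for 95.9% of all genes and for 93.1% of the genes at or above the median of probe set means. The 5 exceptions in this fit were Atr, Prkdc, Xrcc6, Rif1 and Brca2, so it did not exclude a change of that size in these genes. Over 18 alternatives of the fit the count of members within 1.5-fold ran from 28 to 37. It was 37 with the replicate number as a block, and also without both samples numbered 1. The shares of all genes are not given for these alternatives.

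**Figure D1:**
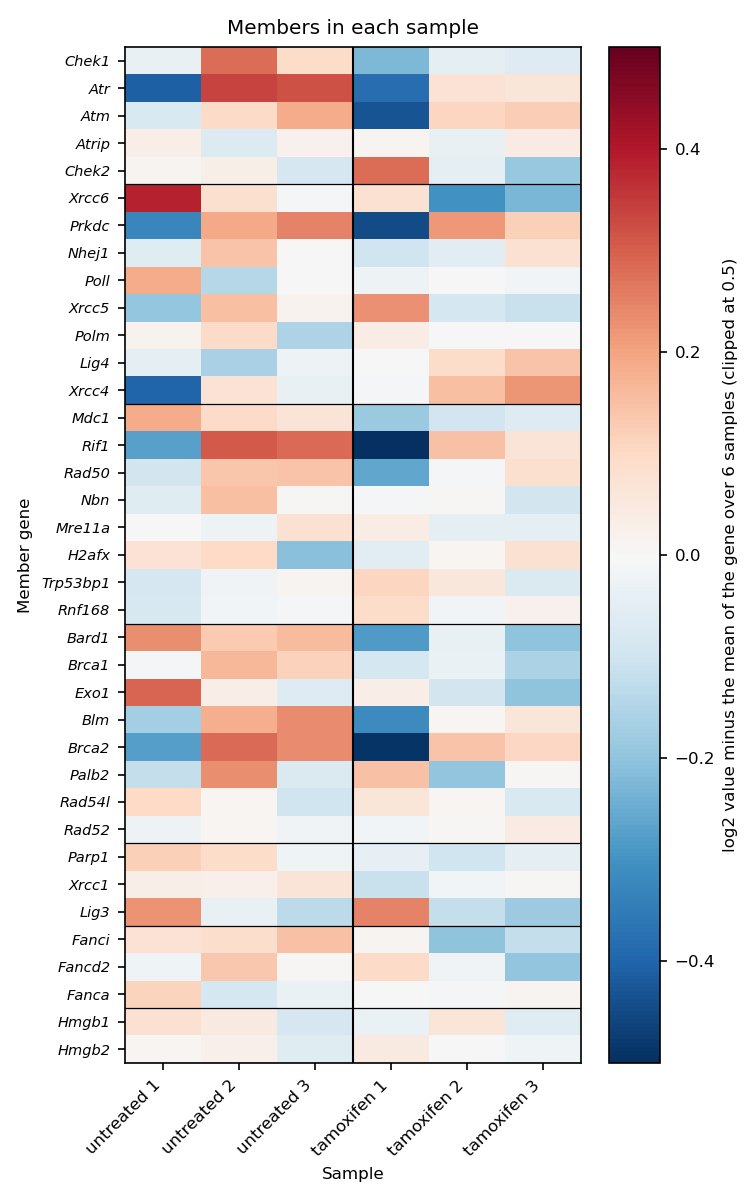
Colour shows each member's normalised log2 value minus its mean over the 6 samples, with members in rows by role and samples in columns (red above, blue below the mean, clipped at 0.5). Bard1, Mdc1 and Brca1 are redder in the untreated than in the tamoxifen columns, and Atr, Prkdc, Rif1, Brca2 and Blm are blue in both samples numbered 1.

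**Figure D2:**
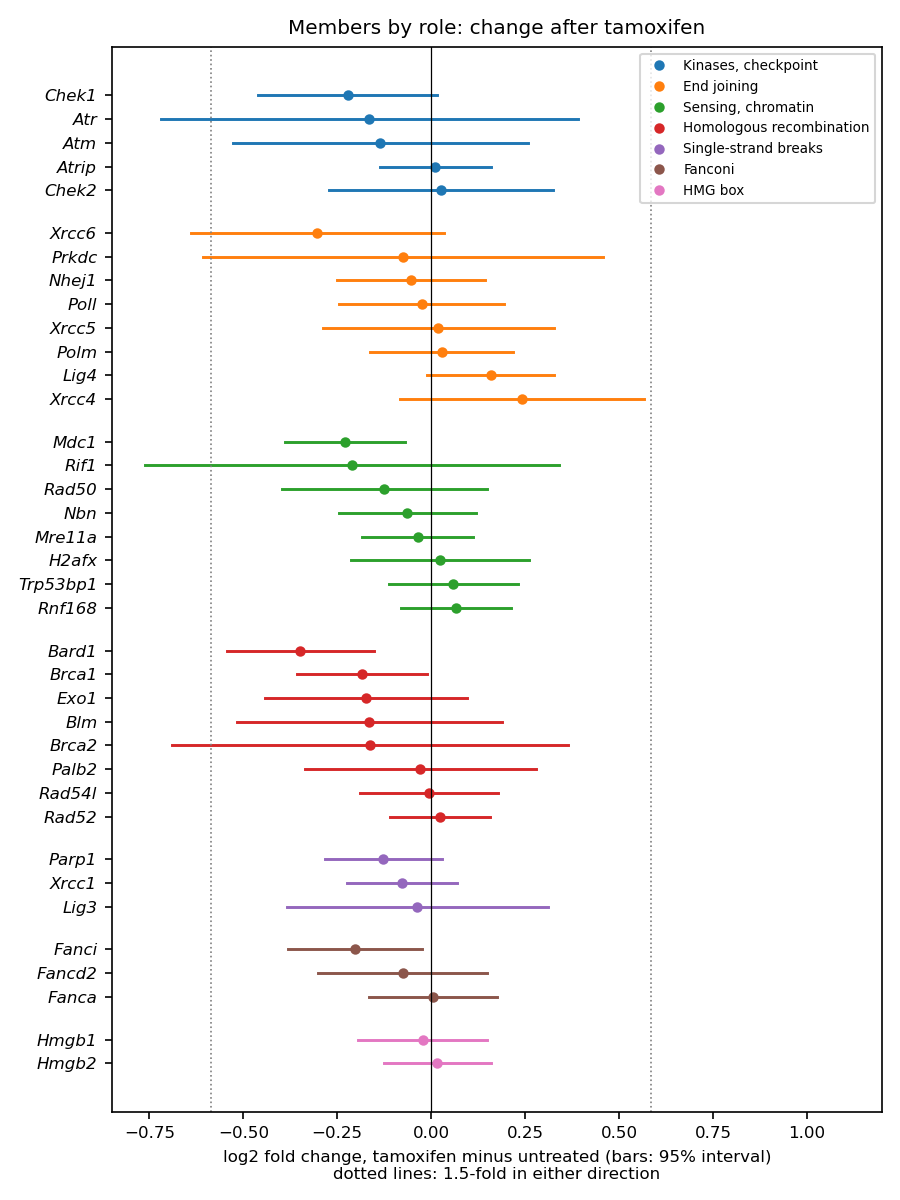
Points show the log2 fold change of each of the 37 members, tamoxifen minus untreated, and bars its limma 95% interval, coloured by role. Only the intervals of Bard1, Mdc1, Brca1 and Fanci leave out 0, and 5 intervals cross a dotted line at 1.5-fold.

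Among the damage kinases and their partners, the checkpoint kinase Chek1 had the largest difference. Chek1, which Atr activates when replication stalls, had untreated intensities of 1219, 1506 and 1216 in samples 1, 2 and 3, against 1109, 1150 and 1125 after tamoxifen in the same order, which all later lists keep. All tamoxifen values lay below all untreated values, and untreated sample 2 was the highest. Chek1 differed on the log2 scale by -0.22 ± 0.10 (SE), with a limma adjusted p = 0.9995.

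Atm, the kinase that responds to DNA breaks, measured 481, 552 and 533 in untreated samples and 389, 525 and 531 after tamoxifen. The groups overlapped and tamoxifen sample 1 was the lowest of the 6. Its log2 fold change was -0.14 ± 0.16 (SE), and without tamoxifen sample 1 it was 0.05.

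Atr, which responds to exposed single-stranded DNA, measured 510, 872 and 781 in untreated samples and 541, 688 and 678 after tamoxifen. Untreated sample 1 and tamoxifen sample 1 were the lowest of their groups, and the groups overlapped. The log2 fold change of -0.16 ± 0.23 (SE) had a 95% interval from -0.72 to 0.39. Without untreated sample 1 it was -0.41, with a limma adjusted p = 0.784, and without untreated sample 2 it was -0.04.

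Chek2, the checkpoint kinase downstream of Atm, measured 335, 346 and 294 in untreated samples and 430, 313 and 284 after tamoxifen. The tamoxifen samples held both the highest and the lowest value of the 6. Its log2 fold change was 0.03 ± 0.12 (SE), and that of Atrip, the partner that brings Atr to DNA, was 0.01 ± 0.06 (SE).

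The classical end joining genes were evenly divided, with 4 of 8 log2 fold changes positive and 4 negative and a median of 0.00. Lig4, the ligase that closes the ends, was the 1 member of all 37 whose tamoxifen values lay above every untreated value. It measured 809, 755 and 752 in untreated samples and 880, 855 and 879 after tamoxifen. The means were 772 ± 32.2 and 871 ± 14.2 (SD, n = 3). On the log2 scale Lig4 differed by 0.16 ± 0.07 (SE), at a limma adjusted p = 0.9995. Xrcc4, the scaffold that holds Lig4, measured 239, 350 and 297 in untreated samples and 338, 352 and 373 after tamoxifen. Here only untreated sample 2 reached into the tamoxifen range. The log2 fold change of Xrcc4 was 0.24 ± 0.14 (SE), the largest positive value among the members. Without untreated sample 1, its lowest sample, it was 0.10.

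The Ku subunits were both measured. Xrcc6, the smaller, gave 797, 648 and 548 in untreated samples and 670, 468 and 492 after tamoxifen. The groups overlapped, because untreated samples 2 and 3 lay below tamoxifen sample 1. After normalization untreated sample 3 alone lay below it. Xrcc6 differed on the log2 scale by -0.30 ± 0.14 (SE), with a 95% interval from -0.64 to 0.03. Xrcc5, the larger subunit, measured 984, 1253 and 1042 in untreated samples and 1389, 1015 and 993 after tamoxifen. The groups overlapped, and tamoxifen sample 1 was the highest of the 6. Its log2 fold change was 0.02 ± 0.13 (SE), and the difference between the subunits was not tested.

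Prkdc, the catalytic subunit of the DNA-dependent kinase, measured 379, 559 and 528 in untreated samples and 361, 537 and 501 after tamoxifen. Sample 1 was the lowest of each group and the ranges were nearly the same. Its log2 fold change was -0.07 ± 0.22 (SE), with an interval from -0.61 to 0.46. The remaining end joining genes were Nhej1 (-0.05), which bridges Xrcc4 complexes, and the gap-filling polymerases Polm (0.03) and Poll (-0.03). Polm and Poll were the only members below the median of probe set means, at 80.2 ± 6.53 and 90.9 ± 11.6 in untreated samples (SD, n = 3).

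Of the genes that sense breaks and mark chromatin, Mdc1 differed most. Mdc1, the adaptor that binds phosphorylated H2afx and gathers repair factors, measured 394, 378 and 336 in untreated samples and 315, 314 and 322 after tamoxifen. The tamoxifen values lay close together and below every untreated value. The means were 369 ± 30.1 and 317 ± 4.47 (SD, n = 3). The log2 fold change of Mdc1 was -0.23 ± 0.07 (SE), with a limma adjusted p = 0.696. Under common median scaling its groups overlapped.

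In the other members of this role the untreated and tamoxifen values overlapped. The complex that holds broken ends gave log2 fold changes of -0.04 for the nuclease Mre11a, -0.12 for Rad50 and -0.06 for Nbn. A dimmer probe set of Nbn gave 0.04. H2afx, the histone that Atm phosphorylates at breaks, had 0.02, and Rnf168, a ubiquitin ligase that prepares chromatin for Trp53bp1, had 0.07. Trp53bp1, which protects ends from resection and favours end joining, had 0.06. Rif1, its effector, had -0.21 ± 0.23 (SE) with an interval from -0.76 to 0.34.

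Of the homologous recombination genes, 7 of 8 had negative log2 fold changes, with a median of -0.16, and 0 passed the test. Under common median scaling 5 of 8 were negative and the median was -0.14. With 1 array left out the median was -0.08 without tamoxifen sample 1 and -0.09 without untreated sample 2 or untreated sample 3. Bard1, the obligate partner of Brca1 in a ubiquitin ligase, had the largest difference of any member. It measured 457, 430 and 397 in untreated samples and 326, 362 and 324 after tamoxifen. Every tamoxifen value lay below every untreated value. The means were 428 ± 29.8 and 337 ± 21.2 (SD, n = 3). On the log2 scale Bard1 differed by -0.35 ± 0.08 (SE), or 1.27-fold, at a limma adjusted p = 0.490. The 95% interval ran from -0.54 to -0.15. Bard1 has 2 further probe sets, and these gave -0.20 ± 0.08 and -0.16 ± 0.07 (SE), so all 3 had a lower mean after tamoxifen.

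Brca1, which directs broken ends towards recombination, measured 526, 602 and 524 in untreated samples and 517, 494 and 448 after tamoxifen. The groups did not overlap, but tamoxifen sample 1 lay just under untreated samples 1 and 3. On the log2 scale Brca1 differed by -0.18 ± 0.07 (SE), at a limma adjusted p = 0.944. Brca2, a core factor of homologous recombination, measured 211, 328 and 293 in untreated samples and 181, 285 and 279 after tamoxifen. Sample 1 was the lowest of each group and the groups overlapped. Its log2 fold change of -0.16 ± 0.22 (SE) turned to 0.04 without tamoxifen sample 1.

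Exo1, a nuclease of long-range resection, had a log2 fold change of -0.17 ± 0.11 (SE), and Blm, a helicase that works with it, had -0.16 ± 0.15 (SE). Palb2, the link between Brca1 and Brca2, had -0.03, Rad54l, a motor that helps strand invasion, had -0.01, and Rad52, an annealing factor, had 0.02.

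**Figure D3:**
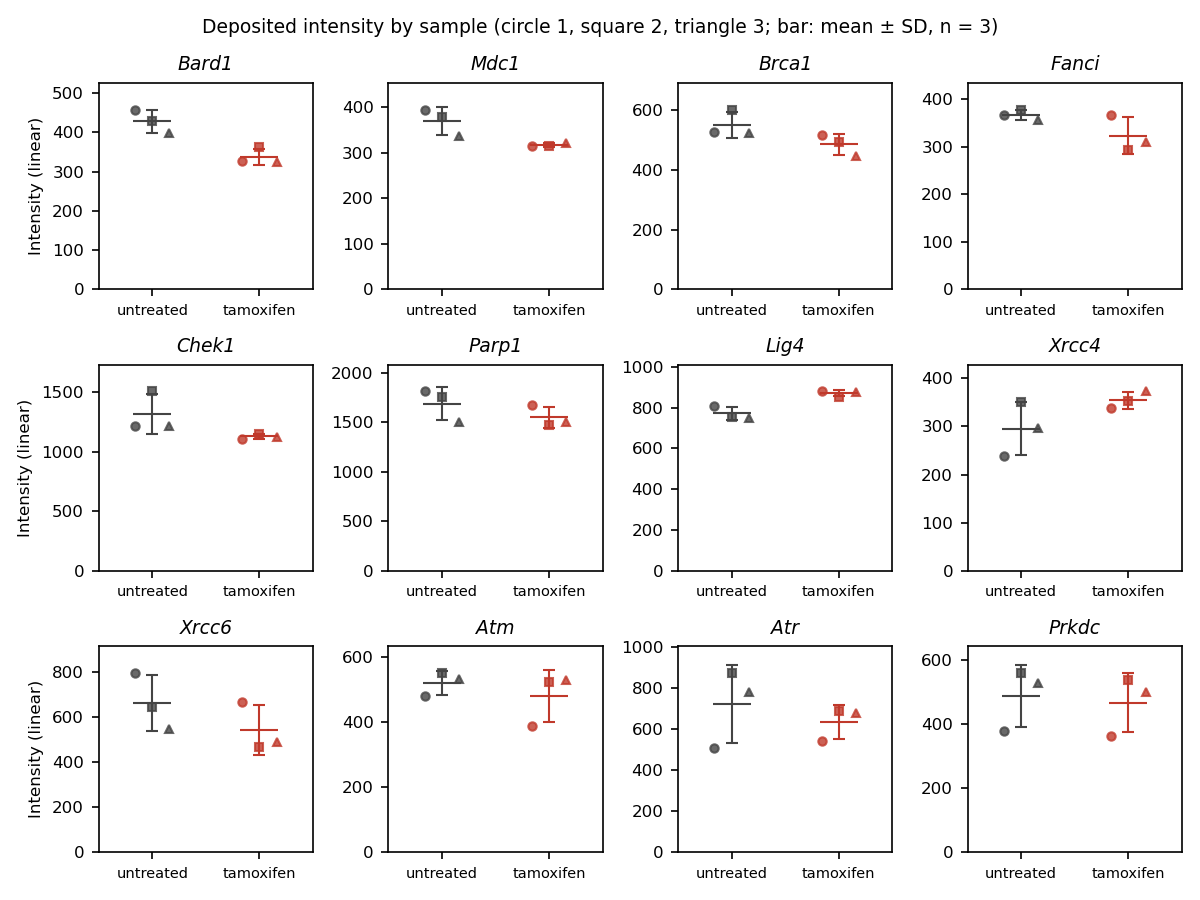
Deposited intensity in each sample for 12 members, with marker shape giving the sample number and bars the mean ± SD (n = 3). Tamoxifen values of Bard1, Mdc1, Brca1 and Chek1 all lie below the untreated values and those of Lig4 above. Sample 1 is lowest in both groups for Atm, Atr, Prkdc and Xrcc4.

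Promoter sequence was examined because Foxo1 binds DNA and because E2F factors drive many repair genes in S phase. RefSeq windows of assembly GRCm38.p6, from 250 bases before to 50 after a start site, matched 30 of the 39 members in 33 windows, Rnf8 among them. The FOXO element TGTTTAC, on either strand, was found in 1 member window, that of Brca2, and in 3.65% of all windows. An E2F element (the letters TTGGCGC, the form TTCCCGC or the form TTCGCGC, on either strand) was found in 42.4% of member windows and 8.07% of all windows. The CCAAT box, on either strand, was found in 54.5% and 37.4%, and the cell cycle homology element TTTGAA in 9.09% and 17.9%. Median GC content was 59.7% in member windows and 52.7% in all windows, and its part in these shares was not tested.

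Of 13 measured members with an E2F element, 8 had negative log2 fold changes (Atm, Bard1, Brca1, Brca2, Chek1, Fanci, Mdc1 and Xrcc6) and 5 positive ones (Chek2, Lig4, Rad52, Rnf168 and Xrcc4). Of 16 measured members with a window and no such element, 10 were negative and 6 positive. The median log2 fold change was -0.16 with an element and -0.03 without, and this gap was not tested. In 4 members (Atm, Brca1, Chek1 and Fanci) the element lay only after the start site. The 250 bases before the start are given for Bard1, Mdc1 and Brca1, which were under the unadjusted threshold and hold a match there, for Lig4 as the member higher in every tamoxifen sample, and for Brca2 as the one with a FOXO element. Sequences run 5′ to 3′ on the gene's strand, with capitals marking FOXO, E2F and CCAAT matches. A match is a description of letters and not evidence of binding.
Bard1, chr1:71102973-71103222, minus strand: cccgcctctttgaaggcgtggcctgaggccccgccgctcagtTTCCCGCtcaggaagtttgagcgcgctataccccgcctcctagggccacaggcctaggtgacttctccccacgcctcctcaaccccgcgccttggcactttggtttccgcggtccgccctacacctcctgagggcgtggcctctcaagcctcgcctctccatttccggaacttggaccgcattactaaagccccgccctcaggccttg
Mdc1, chr17:35841248-35841497, plus strand: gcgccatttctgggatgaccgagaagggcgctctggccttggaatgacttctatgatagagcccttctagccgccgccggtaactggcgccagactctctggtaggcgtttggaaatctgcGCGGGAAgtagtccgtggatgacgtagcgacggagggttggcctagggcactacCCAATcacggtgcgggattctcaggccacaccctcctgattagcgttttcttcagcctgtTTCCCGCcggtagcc
Brca1, chr11:101551956-101552205, minus strand: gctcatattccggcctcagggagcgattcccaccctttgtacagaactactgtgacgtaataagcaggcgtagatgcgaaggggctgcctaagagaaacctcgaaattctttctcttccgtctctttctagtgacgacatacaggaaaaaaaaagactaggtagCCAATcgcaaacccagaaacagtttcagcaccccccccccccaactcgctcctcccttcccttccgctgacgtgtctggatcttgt
Lig4, chr8:9977681-9977930, minus strand: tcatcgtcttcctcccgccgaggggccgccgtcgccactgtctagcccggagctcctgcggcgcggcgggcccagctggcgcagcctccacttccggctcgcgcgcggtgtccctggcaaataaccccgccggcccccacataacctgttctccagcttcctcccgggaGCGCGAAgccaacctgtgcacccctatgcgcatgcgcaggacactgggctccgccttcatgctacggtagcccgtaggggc
Brca2, chr5:150522371-150522620, plus strand: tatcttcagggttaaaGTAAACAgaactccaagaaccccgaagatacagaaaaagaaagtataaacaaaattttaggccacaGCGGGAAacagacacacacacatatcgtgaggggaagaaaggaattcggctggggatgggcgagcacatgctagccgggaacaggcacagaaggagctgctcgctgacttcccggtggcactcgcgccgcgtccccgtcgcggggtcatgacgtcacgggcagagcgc

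In these windows Bard1 has 1 E2F match, 208 bases before the start, and Mdc1 has 2, at 129 and 15 bases, with a CCAAT box at 75. Brca1 has 1 CCAAT box, 86 bases before the start. In Lig4 the single E2F match begins 81 bases before the start, in the upstream one of its 2 windows. Brca2 has its FOXO match at 234 bases and an E2F match at 168 bases.

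Fanconi anaemia genes act where crosslinks block replication forks. Fanci, a subunit of the clamp that is ubiquitinated at such forks, measured 366, 377 and 357 in untreated samples and 366, 293 and 311 after tamoxifen. After normalization its groups did not overlap, whereas the deposited value of tamoxifen sample 1 lay within the untreated range. Fanci differed on the log2 scale by -0.20 ± 0.07 (SE), at a limma adjusted p = 0.898. Its clamp partner Fancd2 had -0.08 and Fanca, of the ubiquitin ligase core, 0.00.

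Genes of single-strand break repair, which also serve alternative end joining, had 3 of 3 negative values. Parp1, which senses nicks and builds poly(ADP-ribose), measured 1810, 1749 and 1500 in untreated samples and 1670, 1472 and 1504 after tamoxifen. The groups were apart after normalization but overlapped in the deposited values. The log2 fold change of Parp1 was -0.13 ± 0.06 (SE). Xrcc1, the scaffold that Parp1 recruits, measured 353, 360 and 337 in untreated samples and 334, 334 and 340 after tamoxifen. It too was apart only after normalization, with a log2 fold change of -0.08 ± 0.06 (SE). Lig3, the ligase bound to Xrcc1, had -0.04.

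The HMG box proteins bend DNA and help RAG bind its target sites. Hmgb2 measured 5788, 5974 and 5451 in untreated samples and 6111, 5668 and 5568 after tamoxifen. Hmgb1 measured 792, 783 and 641 in untreated samples and 765, 749 and 684 after tamoxifen. In both genes the groups overlapped, with log2 fold changes of 0.02 ± 0.06 and -0.02 ± 0.07 (SE). The platform annotation has 31 further probe sets that carry the Hmgb1 symbol together with other symbols, so the value from its 1 own probe set is uncertain. Of 4 Hmgb2 probe sets the bright pair gave 0.02 and -0.03, and the dim pair gave 0.48 ± 0.32 and 0.13 ± 0.15 (SE).

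End joining was then set against homologous recombination within each sample. Each member's normalised log2 value was taken relative to its own mean over the 6 samples, and these deviations were averaged over the 8 genes of each list. For homologous recombination the untreated samples scored 0.004, 0.13 and 0.06, against -0.12, -0.02 and -0.05 after tamoxifen. All tamoxifen scores lay below all untreated scores. The end joining score was -0.06, 0.05 and 0.004 in untreated samples and -0.03, 0.002 and 0.03 after tamoxifen, and the groups overlapped.

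The end joining score minus the homologous recombination score was -0.06, -0.08 and -0.06 in untreated samples and 0.09, 0.03 and 0.08 after tamoxifen. The groups did not overlap. Because each gene is centred on its mean over the 6 samples, 0 lies midway between the groups by construction. The means were -0.06 ± 0.01 and 0.06 ± 0.03 (SD, n = 3), a difference between groups of 0.13 on the log2 scale. No p-value is given for this score, because its members were chosen with earlier results of these data known. The difference between groups was 0.0987 without Bard1 and 0.11 without Lig4.

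**Figure D4:**
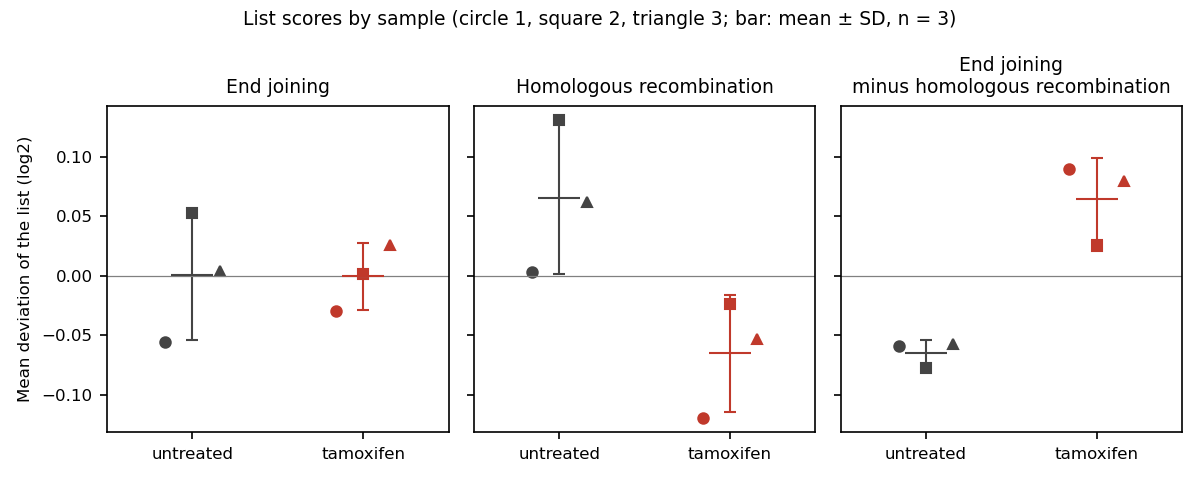
Points show the list score in each sample, the mean log2 deviation over 8 genes, for end joining, for homologous recombination and for their difference, with bars giving the mean ± SD (n = 3). The difference does not overlap between groups, with 0 midway by construction, while the end joining score alone overlaps between groups.

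Genes of S phase, when homologous recombination is active, had lower scores after tamoxifen on average. A list of 21 such genes had 20 negative log2 fold changes (95.2%, against 55.5% of all genes) and a median of -0.13. With limma 0 passed after adjustment, and 2 were at an unadjusted p under 0.05, both lower (2.19% of all genes). The S phase score was 0.17, 0.03 and -0.003 in untreated samples and 0.01, -0.10 and -0.11 after tamoxifen. Within groups the order differed for sample 1, which had the highest S phase score of each group and the lowest homologous recombination score. Sample 2 lay above sample 3 in both scores in each group. Genes of G2 and M phase, by contrast, had a median of 0.04 with 7 of 11 positive. In bulk RNA, fewer cells in S phase and less RNA per cell cannot be told apart, and the part of S phase in the difference was not tested.

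Other genes of the same pathways also gave 0 calls. Of 64 listed, 60 were measured, and the rest were not analysed here. Negative log2 fold changes were found for 45 of 60, with a median of -0.07 and a range from -0.25 to 0.14. With limma 0 passed after adjustment. At an unadjusted p under 0.05 there were 2 lower and 0 higher, against 2.19% and 2.96% of all genes. The 2 lower were Timeless, a replication fork protection factor, at -0.25 ± 0.10 (SE), and Fancb, of the Fanconi core, at -0.25 ± 0.10 (SE). The 95% interval lay within 1.5-fold for 58 of the 60.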

How the data were processed

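Biotinylated cRNA was made from 200 ng of total RNA of each of 6 samples (3 untreated, 3 tamoxifen), per the labels' protocols. The authors deposited an intensity on a linear scale for each probe set, and how it was background corrected, summarised and normalised, and on which genome build, is not stated in the sources used here. Sample titles gave groups and replicate numbers. An annotation table of the platform, which can be old, paired 21640 of the 34760 probe sets with 1 gene symbol. From the deposited values, log2(value + 16) was computed, quantile normalised and tested two-sided by limma 3.58.1 (R 4.3.3; lmFit, eBayes), adjusting by Benjamini-Hochberg across every probe set. The script was tested on simulated data. Members, lists and alternatives were chosen with earlier results of these data known. Every member is named. Per-sample values are given by rule for members at an unadjusted p under 0.05 or with separate groups and for 12 genes picked by role, and were added for Xrcc4. Of other pathway genes, up to 8 at an unadjusted p under 0.05 are named. Promoters are RefSeq sequences (GRCm38.p6). Alternatives covered blocking on the replicate number, leaving out each array, cyclic loess, common median scaling or no normalization, pseudocounts of 1 and 64, dropping dim or unnamed probe sets, trended robust eBayes, weighting arrays, averaging probe sets, and other summaries and memberships of the 2 lists. The number of arrays limits the precision.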

Additional observations from a re-analysis of the deposited data

How the results depend on the processing

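No member passed limma after adjustment (0 higher, 0 lower) under any of 18 alternatives of the fit, and 618 of 664 member values kept their sign. The difference between end joining and homologous recombination was positive in each of its alternatives, 0.16 with list medians and 0.0987 without Bard1. Its groups did not overlap in 19 of 19 settings of the fit, main included. Array weights, trended robust eBayes, blocking on the replicate number and dropping unnamed probe sets leave the per-sample scores unchanged. Those settings could not bring overlap, and leaving out arrays of groups already apart can hardly do so. Leaving out both samples numbered 1, Bard1 or Lig4 was chosen after seeing the data. At an unadjusted p under 0.05, 4 members were lower and 0 higher in the main fit. With common median scaling there were 1 and 1 (1.28% and 2.47% of all genes), and with no further normalization 2 and 1 (1.53% and 2.57%). The intensity trend gave 2 lower (1.95% of all genes). Array weights or a pseudocount of 64 gave 5 lower (3.11% and 2.59% of all genes) and 1 higher (3.63% and 3.52%). Averaging probe sets or dropping unnamed ones gave 6 lower (2.79% and 2.69% of all genes) and 0 higher (3.61% and 3.55%). A pseudocount of 1 or dropping dim probe sets gave 3 lower (1.95% and 2.54% of all genes) and 0 higher (2.56% and 4.12%). Members lower without overlap, 7 in all, numbered 2 with common median scaling (4.3% of all genes) and 4 with no further normalization (4.77%). With single arrays left out, 2 to 5 members were lower and 0 to 1 higher at an unadjusted p under 0.05. The shares of all genes ran from 1.31% to 2.81% lower and from 2.12% to 3.6% higher. Without overlap, 7 to 12 members were lower and 1 to 3 higher, against 9.06% to 15.8% and 8.12% to 13.4% of all genes. The 12 lower were found without untreated sample 1, where the share was 10.2%. Without untreated sample 2 there were 7 lower and 3 higher, against 15.8% and 8.4% of all genes. Without both samples numbered 1 there were 17 lower and 3 higher without overlap, against 17.8% and 21.4% of all genes. With the replicate number as a block, 10 members were lower and 1 higher at an unadjusted p under 0.05, against 3.02% and 3.70% of all genes, and 0 passed adjustment. Deviations of same-numbered samples correlated at 0.256, 0.0547 and 0.302, and untreated samples 1 and 3 but not 2 correlated best with their own number. The labels' protocol has the cells divided between treatment and none, without saying that a number marks a shared culture, so pairing was neither established nor excluded. Signs turned with array weights for Chek2 (-0.035), Xrcc5 (-0.059) and Hmgb1 (0.0039), with common median scaling for Palb2 (0.0025), Rad54l (0.028), Lig3 (0.0058) and Hmgb1 (0.0093), and with no further normalization for Rad54l (0.012). Without both samples numbered 1 they turned for Chek2 (-0.090), Xrcc5 (-0.18), Poll (0.066), Trp53bp1 (-0.0061), Rad54l (0.011) and Hmgb1 (0.021). With single arrays left out the log2 fold change ran from -0.23 to 0.045 for Atm, -0.021 to 0.033 for Atrip, -0.34 to 0.041 for Brca2, -0.11 to 0.13 for Chek2, -0.039 to 0.061 for Fanca, -0.14 to 0.0021 for Fancd2, -0.076 to 0.080 for H2afx, -0.070 to 0.0091 for Hmgb1 and -0.011 to 0.035 for Hmgb2. It ran from -0.17 to 0.066 for Lig3, -0.11 to 0.0037 for Nhej1, -0.11 to 0.080 for Palb2, -0.10 to 0.061 for Poll, -0.042 to 0.083 for Polm, -0.26 to 0.13 for Prkdc, -0.057 to 0.042 for Rad54l, -0.40 to 0.0018 for Rif1 and -0.089 to 0.0995 for Xrcc5. Causes were not tested.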

Other observations

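Atr, Prkdc, Rif1, Brca2 and Blm were each lower by more than 0.3 on the log2 scale in sample 1 than in the mean of samples 2 and 3, in the untreated and in the tamoxifen group alike. That is 5 of 37 members (13.5%), against 1.82% of all genes. In the other direction Xrcc6 (0.35 and 0.34) and Lig3 (0.31 and 0.40) were higher by more than 0.3 in sample 1 of both groups, 2 of 37 members (5.41%) against 1.67% of all genes. The gaps were -0.73 and -0.45 for Atr, -0.54 and -0.61 for Prkdc, -0.57 and -0.64 for Rif1, -0.53 and -0.61 for Brca2 and -0.38 and -0.35 for Blm, untreated first. Over all members 22 of 37 had gaps of the same sign in both groups, close to the share of all genes (59.5% and 57.7%). By direction, sample 1 was lower in both groups in 12 members (32.4%, against 23.6% of all genes). It was higher in both groups in 10 members (27.0%, against 34.1% of all genes). Without both samples numbered 1, Atr, Rif1 and Xrcc6 were under an unadjusted limma p of 0.05 together with Bard1, Brca1 and Fanci, all lower after tamoxifen, and Mdc1 was not; 2.81% of all genes were lower at that threshold. This pattern was noticed after the values were seen, and its source was not tested.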
